A study of Sus scrofa with 20 samples.

Results

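TMEM120A, TMEM120B and RHOF were followed across the hypothalamus of 20 pigs. They are 3 of the 25880 gene rows of the counts table, found by their pig gene symbols as ENSSSCG00000021837 (TMEM120A), ENSSSCG00000009808 (TMEM120B) and ENSSSCG00000009807 (RHOF). TMEM120B was chosen because it was well counted and higher in crossbred animals, TMEM120A because it is its paralog, and RHOF because it overlaps TMEM120B in the genome. The breed difference of these genes is therefore a description with no test, and the tests concern sex, the interaction of breed and sex, and the relation between the genes across animals. All 3 passed the filter on low counts (a minimum of 10 counts in a group-sized number of libraries), which kept 7090 genes.

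The groups were males of the cross between Iberian and Large White, females of that cross, pure Iberian males and pure Iberian females, with 5 animals each. All animals were 2 months old, and the labels name no treatment or other allele. Iberian pigs are a fat native breed and Large White a lean one. Each library was made from the messenger RNA of 1 animal's hypothalamus, the brain region that governs feeding, energy balance and hormone release.

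TMEM120A and TMEM120B encode membrane proteins that span the membrane several times and were found in the nuclear envelope of fat cells. In mouse fat cell precursors both are needed for full adipocyte differentiation, and TMEM120A, also called TACAN, was proposed as an ion channel of pain sensing, a role that is debated since its fold resembles that of fatty acid elongases. RHOF, also called Rif, is a small GTPase that drives the growth of filopodia, thin actin protrusions of the cell surface.

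Each library held 1430138 to 2384615 gene counts, 4.04 to 4.62% of all entries, while 80.2 to 88.1% matched no annotated feature. Levels are given in CPM, gene counts scaled to library size with TMM factors (the trimmed mean method that aligns libraries). Iberian male replicate 5 stood apart. Its first principal component score was 63.95 against at most 1.195 elsewhere, and 23.7% of its counts were on ND6 against at most 9.997%. Its sum over 7 anterior pituitary markers (PRL, CGA and FSHB foremost) was 361 CPM, against 3.07 to 7.82 CPM in the crossbred and Iberian female libraries. The 5 Iberian males, that library among them, had a minimum of 6.25 CPM and a median of 8.41 CPM. All 5 Iberian females and 2 Iberian males had a high share of low-quality alignments (5.33 to 5.92%), and the other 13 libraries had 2.73 to 3.88%. Hypothalamic marker genes were thinly counted, with 36 to 104 counts per library over 13 identifiers, of which only AVP and HCRT passed the filter. In bulk tissue, fewer cells of a type and less RNA per cell cannot be told apart, and whether a count came from the named gene or from an overlapping one was not tested.

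On Sscrofa11.1, in the RefSeq annotation, TMEM120B spans positions 30901813 to 30957350 of chromosome 14, and RHOF spans 30886053 to 30908048 of the same chromosome. Their spans share 6236 bases, which is 11.2% of TMEM120B and 28.4% of RHOF. TMEM120A lies on chromosome 3 at 10206581 to 10212612. The span of STYXL1, a pseudophosphatase, runs from 10131508 to 10212611 and so covers 6031 of the 6032 bases of TMEM120A, and POR, the electron donor of cytochrome P450 enzymes, begins 121 bases beyond it. The table gives no strand and no exons, and an Ensembl identifier for STYXL1 was not matched by symbol. Reads from overlapping genes cannot be told apart without strand, so all counts below are those assigned to the identifier. The labels state neither strand marking by the kit nor the strand setting of the counting, so the strand that the counts represent is not known, and few entries (the share above) fell in any gene. With the strand unknown, the levels below may not be those of the named messenger RNA. ND6 alone took 5.37 to 9.997% of gene counts in the libraries other than Iberian male replicate 5, and its bearing on strand was not tested.

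**Figure D1:**
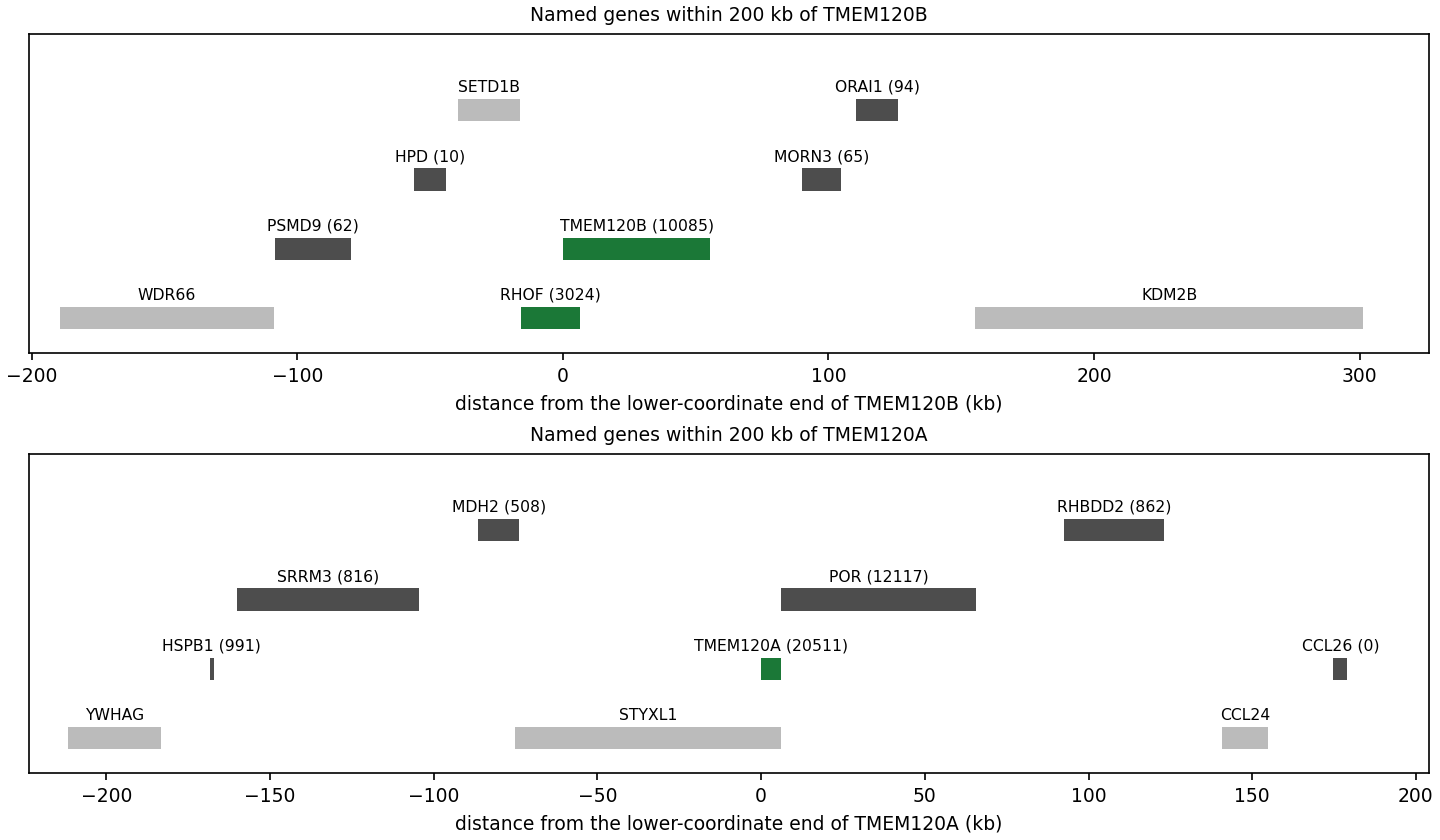
Named genes within 200 kb of TMEM120B (top) and TMEM120A (bottom), drawn to scale as distance in kb from the lower-coordinate end of each gene, with the total count over the 20 libraries in parentheses. Green bars are the 3 genes described, dark bars other genes with a matched identifier and pale bars genes without one; vertical position has no meaning. TMEM120B overlaps RHOF, and TMEM120A lies all but 1 base within STYXL1 and beside POR.

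TMEM120B was the gene with the breed difference that led to its choice. In CPM it measured 272, 313, 329, 269 and 300.1 in crossbred males and 288, 250.4, 297, 281 and 324 in crossbred females. In Iberian males it measured 214, 240.5, 251, 243 and 218, and in Iberian females 273, 223, 253, 220.1 and 226. All 10 crossbred animals lay above the Iberian median, 7 of them above every Iberian animal, and the remaining 3 crossbred values fell within the Iberian range of 214 to 273 CPM.

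The mean of TMEM120B was 292 ± 25.3 CPM in crossbreds and 236 ± 19 CPM in Iberian animals (± SD over 10 animals each), a fitted log2 difference of 0.31 (SE 0.07), or 1.24-fold. Over all tested genes 0.226% were called between breeds, and nothing is read from this for a gene chosen on that contrast. The differences within males and within females are parts of the contrast that led to the choice, so they are no separate support. Crossbred males averaged 296 ± 26.1 CPM against 233 ± 16.3 CPM in Iberian males (± SD, n = 5 each), log2 0.34 (SE 0.10), and the male groups did not overlap, as held for 0.705% of tested genes in that direction. Crossbred females averaged 288 ± 26.8 CPM against 239 ± 22.9 CPM in Iberian females (± SD, n = 5 each), log2 0.27 (SE 0.10), with 4 of 5 crossbred females above every Iberian female.

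The split in alignment quality partly followed breed, and a comparison of breeds within 1 side of it was possible only in males. Against the 3 Iberian males of the low set, with 214, 243 and 218 CPM, crossbred males were higher by a log2 difference of 0.41 (SE 0.12). The value of 218 CPM belonged to Iberian male replicate 5, the library with the pituitary transcripts. The 2 Iberian males of the high set had 240.5 and 251 CPM. All crossbred females were in the low set and all Iberian females in the high set, so in females breed and this split cannot be told apart. With the split as a term in the fit, estimated from Iberian males alone and with replicate 5 among them, the breed difference was 0.39 (SE 0.12).

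Cell type markers were compared beside the levels of the 3 genes. Summed myelin markers (10 of 12 with an identifier) were 1717 to 1967 CPM in crossbred males, 1562 to 2251 in crossbred females, 1453 to 1683 in Iberian males and 1538 to 1857 in Iberian females. The male breed groups did not overlap in this sum, as held for 0.705% of single tested genes in that direction. MBP and CNP were its largest parts (mean 930.6 and 505.8 CPM), and 3 of the 10 markers had a breed difference below 0. Microglial markers were 336 to 391, 344 to 399.5, 307 to 380 and 340 to 367 CPM in the same order, and neuronal markers 451 to 508, 441 to 492, 429 to 748 and 450 to 508 CPM. The neuronal value of 748 CPM belonged to Iberian male replicate 5, and the median of that group was 481 CPM. Astrocyte markers were 610 to 803, 584 to 832, 611 to 776 and 616 to 863 CPM in the same order. The median breed difference was 0.09 over the 10 tested myelin markers, -0.10 over 3 microglial, -0.05 over 9 neuronal and -0.02 over 6 astrocyte markers. The part of these markers in the difference of TMEM120B was not tested.

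TMEM120A, the paralog, showed no such separation between breeds. It measured 559, 591, 516, 549.6 and 515 CPM in crossbred males and 513, 510.1, 547, 535 and 611 CPM in crossbred females. In Iberian males it measured 475, 516, 530.1, 541 and 477 CPM, and in Iberian females 575, 575, 567, 549 and 545 CPM. The breeds overlapped over most of their range, with means of 545 ± 34.7 CPM in crossbreds and 535 ± 36.2 CPM in Iberian animals (± SD over 10 animals each) and a log2 difference of 0.03 (SE 0.06). The sign of the fitted breed difference was positive in males at 0.10 (SE 0.08) and negative in females at -0.05 (SE 0.08), and the test of that difference is given with the interaction below.

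RHOF, whose span overlaps TMEM120B, had the lowest counts of the 3, with 75 to 194 per library. It measured 77.6, 70.6, 71.0, 85.4 and 71.6 CPM in crossbred males and 77.4, 91.7, 80.8, 78.8 and 92.9 CPM in crossbred females. In Iberian males it measured 73.0, 81.9, 84.1, 82.7 and 58.1 CPM, and in Iberian females 92.4, 81.7, 67.6, 87.1 and 81.4 CPM. The 4 groups overlapped, and the lowest value of all belonged to Iberian male replicate 5, the library with the pituitary transcripts. The breed means were 79.8 ± 8.05 CPM in crossbreds and 79 ± 10.05 CPM in Iberian animals (± SD over 10 animals each), a log2 difference of 0.01 (SE 0.09). Without Iberian male replicate 5 it was -0.03 (SE 0.08), and with the alignment-quality term 0.16 (SE 0.15).

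**Figure D2:**
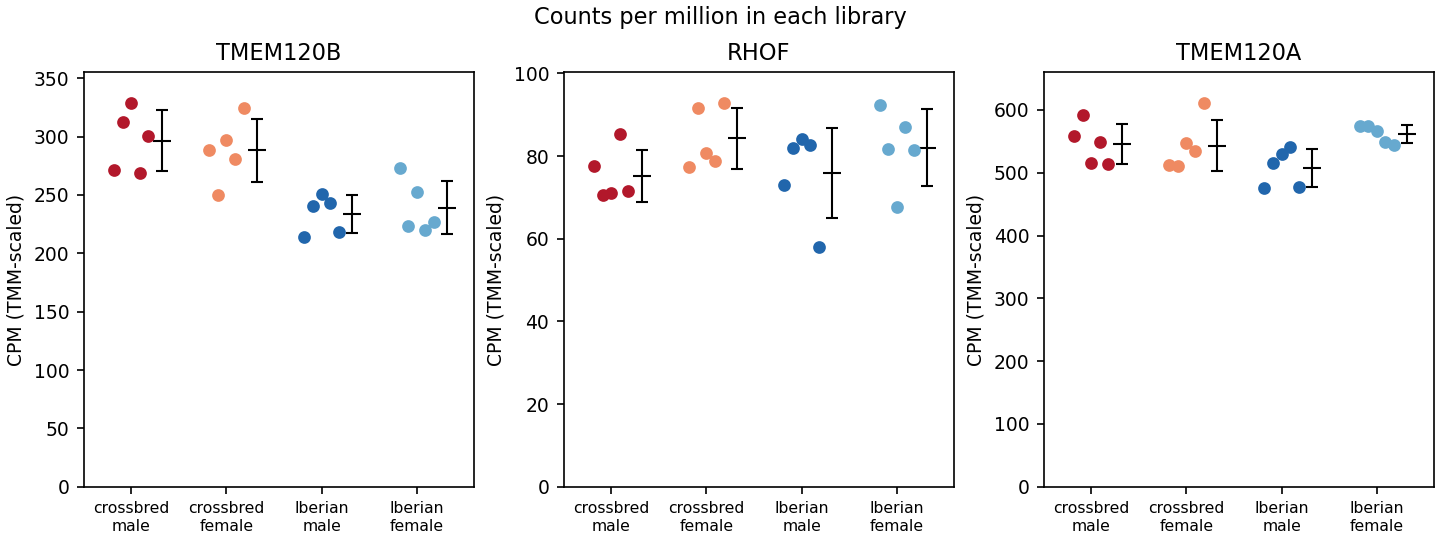
CPM of TMEM120B, RHOF and TMEM120A in each of the 20 libraries by group, with the group mean and SD (n = 5) beside the points and an axis from 0. The crossbred groups of TMEM120B sit at 250.4 to 329 CPM against 214 to 273 CPM in the Iberian groups, while RHOF and TMEM120A overlap between breeds.

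The order of group means differed between the genes. For TMEM120B it ran from crossbred males (296 CPM) and crossbred females (288 CPM) to Iberian females (239 CPM) and Iberian males (233 CPM), and the neighbours of 1 breed differed by less than their SD. For TMEM120A it ran from Iberian females (562 ± 14.4 CPM) through crossbred males (546 ± 32.1 CPM) and crossbred females (543 ± 40.9 CPM) to Iberian males (508 ± 30.1 CPM), each step being near to or within the SD of the neighbouring groups (n = 5 each). For RHOF both female groups (crossbred 84.3 ± 7.38 and Iberian 82.0 ± 9.26 CPM) stood above both male groups (Iberian 75.97 ± 10.9 and crossbred 75.3 ± 6.33 CPM), with overlap at every step. Levels are not compared between genes, since exon lengths were not used here.

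Sex, which played no part in the choice of the genes, gave no call for any of them, and in edgeR with all libraries none had an unadjusted p under 0.05 in the sex or interaction tests. Of all tested genes 0.0705% were called between sexes. TMEM120B averaged 265 ± 39.0 CPM in males and 264 ± 34.9 CPM in females (± SD over 10 animals each), a log2 difference of 0.00 (adjusted p = 1 in edgeR, SE 0.07), with 5 of 10 males above the female median and a 95% interval of -0.13 to 0.14. RHOF averaged 75.6 ± 8.41 CPM in males and 83.2 ± 7.98 CPM in females (± SD over 10 animals each), log2 -0.13 (adjusted p = 1 in edgeR, SE 0.09, interval -0.31 to 0.05), with 6 of 10 males below the female median. TMEM120A averaged 527 ± 35.6 CPM in males and 553 ± 30.6 CPM in females (± SD over 10 animals each), log2 -0.07 (adjusted p = 1 in edgeR, SE 0.06, interval -0.18 to 0.05), with 7 of 10 males below the female median. These intervals leave room for sex differences of RHOF up to a fitted fall of 0.31 on the log2 scale.

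Within crossbred animals the means of the sexes differed by less than their SD for both TMEM120 genes. TMEM120B had a log2 difference, male minus female, of 0.04 (adjusted p = 0.988 in edgeR, SE 0.10) and TMEM120A 0.01 (adjusted p = 0.999 in edgeR, SE 0.08). RHOF had -0.16 (adjusted p = 0.968 in edgeR, SE 0.12), with 4 of 5 crossbred males below the crossbred female median. Again 0.0705% of tested genes were called.

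Within Iberian animals TMEM120A had the clearest separation of the sexes, without passing the test. All 5 Iberian males, at 475 to 541 CPM, lay below all 5 Iberian females, at 545 to 575 CPM, as held for 0.621% of tested genes in that direction. The log2 difference was -0.15 (unadjusted p = 0.077 and adjusted p = 0.714 in edgeR, SE 0.08) and -0.16 in DESeq2 (unadjusted p = 0.0265, adjusted p = 0.743), and 0.0705% of tested genes were called. Among high-share libraries only (2 males and 5 females) it was -0.11 (adjusted p = 0.966 in edgeR, SE 0.085), and without Iberian male replicate 5 it was -0.13 (adjusted p = 0.75 in edgeR, SE 0.07). TMEM120B had -0.03 (adjusted p = 0.962 in edgeR, SE 0.10) and RHOF -0.10 (adjusted p = 0.869 in edgeR, SE 0.13), and in the high-share libraries alone both were slightly positive, at 0.04 (SE 0.11) and 0.02 (SE 0.16). For RHOF the value was -0.03 without Iberian male replicate 5 (SE 0.12) and -0.02 with limma voom (SE 0.11).

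The interaction asked whether the breed difference itself differed between males and females, and 0.0141% of tested genes were called. TMEM120B had 0.07 on the log2 scale (adjusted p = 0.925 in edgeR, SE 0.14, interval -0.20 to 0.35), so its breed difference was not shown to depend on sex. TMEM120A had 0.15 (adjusted p = 0.719 in edgeR, SE 0.11, interval -0.08 to 0.38) and RHOF -0.06 (adjusted p = 0.957 in edgeR, SE 0.18, interval -0.42 to 0.30), or -0.18 with the alignment-quality term (SE 0.20, adjusted p = 0.958 in edgeR). Over the sex and interaction tests of the 3 genes and the alternatives tried, the smallest adjusted p was 0.552.

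**Figure D3:**
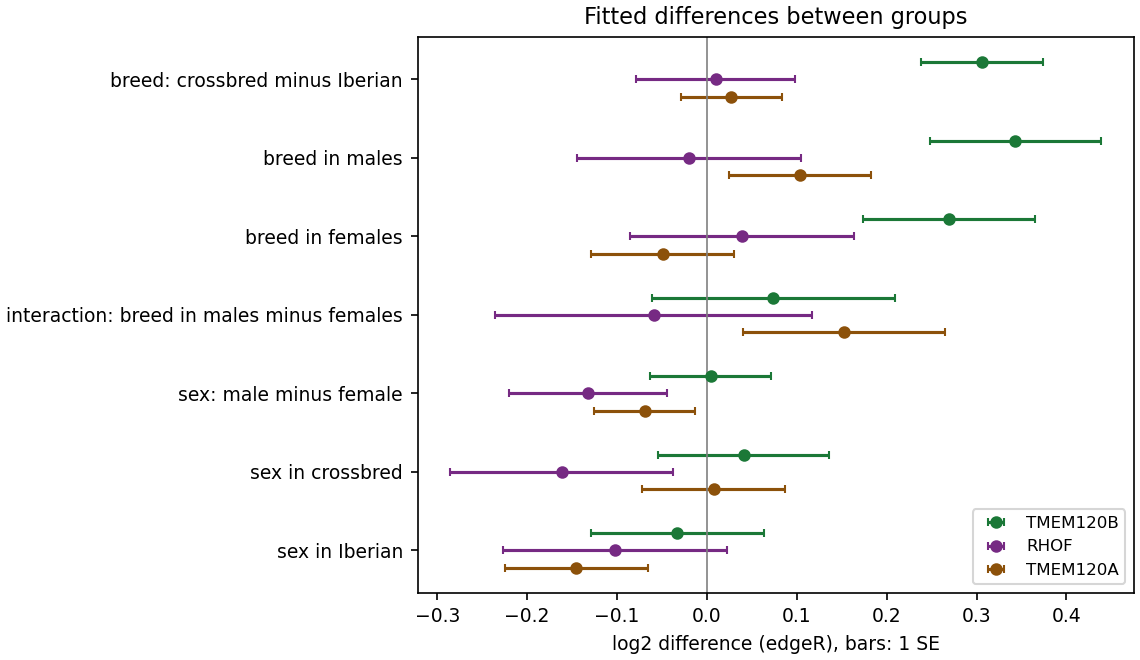
Fitted log2 differences of the 3 genes for breed (crossbred minus Iberian), the interaction and sex (male minus female), with bars of 1 SE from the edgeR fit of all 20 libraries. TMEM120B stands at 0.27 to 0.34 in the breed rows that led to its choice, and the sex and interaction values of all 3 genes lie between -0.16 and 0.15 with no call.

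Ratios of counts within a library do not depend on how libraries are scaled. For each count of TMEM120A there were 0.545 ± 0.0651 counts of TMEM120B in crossbred males and 0.530 ± 0.0263 in crossbred females, against 0.4595 ± 0.0103 in Iberian males and 0.425 ± 0.0349 in Iberian females (± SD, n = 5 each). The ratio was 0.486 to 0.638 over the 10 crossbred animals and 0.389 to 0.475 over the 10 Iberian animals, so the breeds did not overlap. Of the other tested genes set against TMEM120A in the same way, 0.0282% were higher in crossbred animals without overlap, and TMEM120B, chosen for its breed difference, is counted in that share. The breed difference of the log2 ratio was 0.28. Among the libraries with a low share of low-quality alignments it was 0.24. That set held both crossbred sexes but only 3 Iberian males and no Iberian females, so the value mixes breed with sex.

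The breed difference of its overlapping neighbour RHOF was 0.01. The ratio of TMEM120B to RHOF therefore largely restates the breed difference on which TMEM120B was chosen. There were 3.98 ± 0.63 counts of TMEM120B per count of RHOF in crossbred males and 3.44 ± 0.41 in crossbred females, against 3.11 ± 0.36 in Iberian males and 2.95 ± 0.47 in Iberian females (± SD, n = 5 each). The ranges overlapped, at 2.73 to 4.63 in crossbreds and 2.53 to 3.76 in Iberian animals, and the breed difference of the log2 ratio was 0.29. Among the libraries with a low share of low-quality alignments it was 0.20, again with both crossbred sexes against 3 Iberian males. Those males had ratios of 2.928, 2.943 and 3.76, the last in Iberian male replicate 5, the library with the pituitary transcripts. The parts of sex, alignment quality and that library in the change from 0.29 were not tested. The ratio of RHOF to TMEM120A was 0.147 ± 0.0155 in crossbreds and 0.148 ± 0.0153 in Iberian animals (± SD over 10 animals each).

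**Figure D4:**
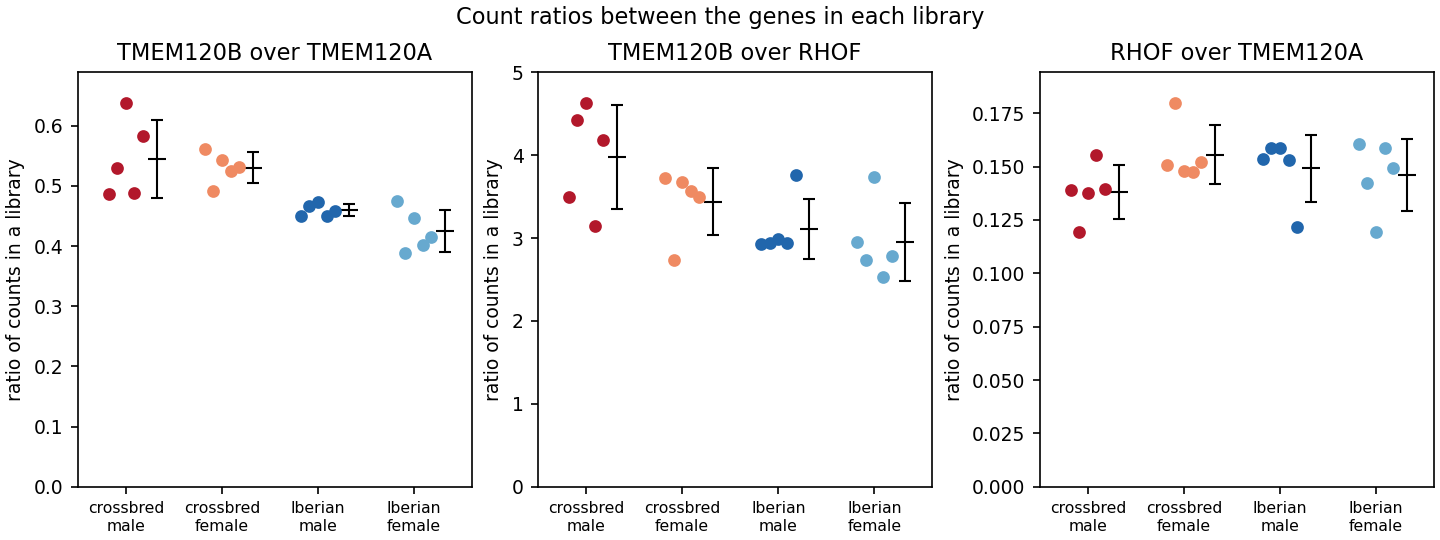
Ratios of raw counts between the genes in each of the 20 libraries by group, with the group mean and SD (n = 5) beside the points and an axis from 0. For TMEM120B over TMEM120A every crossbred point (0.486 or more) lies above every Iberian point (0.475 or less), while RHOF over TMEM120A overlaps between breeds.

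Across animals, deviations from the group means showed how far the genes moved together within groups. TMEM120B and TMEM120A had a Pearson r of 0.50 over 20 libraries (permutation p = 0.0387, adjusted over 3 pairs p = 0.112) and a Spearman coefficient of 0.53 (permutation p = 0.0264, adjusted p = 0.0792), which did not pass after adjustment. With CPM not scaled by TMM, r was 0.64 (adjusted permutation p = 0.0346), past the threshold, and the Spearman coefficient 0.47 (adjusted permutation p = 0.142). Without the 2 libraries farthest from the median of TMEM120B, r was 0.45 (permutation p = 0.0762). Within breeds it was 0.38 in crossbreds and 0.71 in Iberian animals (n = 10 each, adjusted permutation p = 0.413 and 0.0613), with a Spearman coefficient of 0.42 and 0.70 (adjusted permutation p = 0.614 and 0.0466). Over both breeds without crossbred male replicate 3, r was 0.66 (n = 19, adjusted permutation p = 0.0151), past the threshold, and over single libraries left out it was 0.37 to 0.66.

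The overlapping pair TMEM120B and RHOF had no detectable correlation, with r = 0.06 (permutation p = 0.806, adjusted p = 0.806) and a Spearman coefficient of 0.01 (permutation p = 0.974, adjusted p = 0.974). Without the 2 libraries farthest from the median r was 0.04. The sign differed between breeds, at -0.41 in crossbreds and 0.38 in Iberian animals (n = 10 each, adjusted permutation p = 0.413 and 0.304), and the difference between breeds was not tested. TMEM120A and RHOF had r = 0.43 (permutation p = 0.0744, adjusted p = 0.112) and a Spearman coefficient of 0.44 (permutation p = 0.0817, adjusted p = 0.123). That r was 0.37 without the 2 libraries farthest from the median of TMEM120A, 0.32 without Iberian male replicate 5, and 0.32 and 0.59 within crossbred and Iberian animals (n = 10 each, adjusted permutation p = 0.413 and 0.149). Its Spearman coefficient was 0.20 in crossbreds and 0.81 in Iberian animals (adjusted permutation p = 0.614 and 0.0466), the second past the threshold, and 0.65 over both breeds without crossbred male replicate 2 (n = 19, adjusted permutation p = 0.0182).

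**Figure D5:**
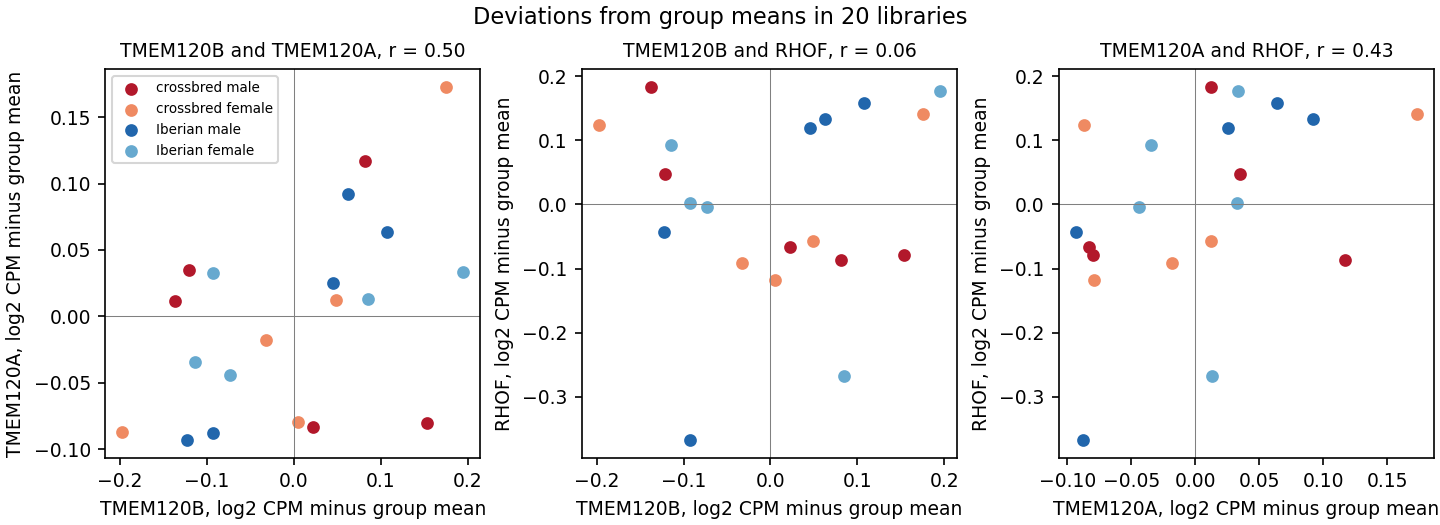
Deviations of log2 CPM from the group mean in each of the 20 libraries for the 3 pairs of genes, coloured by group. TMEM120B and TMEM120A lean to the same side (r = 0.50), TMEM120B and RHOF show no common direction (r = 0.06), and the lowest RHOF point is Iberian male replicate 5.

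The genes most like each of them were ranked by the same deviations, with no test since they were picked as the highest. For TMEM120B they were STK16, a kinase of the Golgi (r = 0.78), LMTK3, a neuronal kinase of the lemur family (0.76), IPP, an actin-binding kelch protein (0.74), NAGS, which makes the activator of the urea cycle (0.73), and GADD45GIP1, a protein of the mitochondrial ribosome (0.72). TMEM120A ranked 179 among the 7089 other genes for likeness to TMEM120B, and RHOF ranked 2888. For TMEM120A they were RAD9A, part of the DNA damage checkpoint clamp (0.89), SHARPIN, of the linear ubiquitin ligase (0.89), WDR83 (0.88), SBNO2 (0.87) and the polycomb partner PHF1 (0.87). For RHOF they were SH2D7 (0.87), PRKCSH, the beta subunit of glucosidase II (0.87), GLB1L2 (0.83), the glucokinase regulator GCKR (0.83) and the retinal homeobox gene RAX2 (0.82). Those values rested in part on Iberian male replicate 5 for RHOF, where they were 0.68 to 0.80 without it. Without it they were 0.71 to 0.77 for TMEM120B and 0.87 to 0.90 for TMEM120A.

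POR, which adjoins TMEM120A, was the best counted of its neighbours, with 12117 counts in all. It averaged 319 ± 9.17 CPM in crossbred males, 332 ± 34.0 CPM in crossbred females, 288 ± 72.3 CPM in Iberian males and 328 ± 12.6 CPM in Iberian females (± SD, n = 5 each). Its breed difference was 0.08 on the log2 scale (adjusted p = 0.865 in edgeR, SE 0.08) and its sex difference -0.12 (adjusted p = 1 in edgeR, SE 0.08). Its deviations had r = 0.63 with those of TMEM120A over 20 libraries and 0.69 over 19 without Iberian male replicate 5, which held its lowest value of 182 CPM. In that ranking POR stood at place 163 for TMEM120A. Farther along, the tested genes were the heat shock protein HSPB1 (breed 0.03, SE 0.14), SRRM3 (-0.02, SE 0.13), the malate dehydrogenase MDH2 (0.02, SE 0.19) and RHBDD2 (-0.02, SE 0.15), none of them called (edgeR adjusted p 0.981 to 0.987). Around TMEM120B the other genes with an identifier were too thinly counted to test, with 62 counts over all libraries for PSMD9, 10 for HPD, 65 for MORN3 and 94 for ORAI1.

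The wider pathways were read from 8 gene lists with 76 tested genes, and none of these genes was called for breed, sex or the interaction by edgeR, by DESeq2 or by limma voom. At an unadjusted p under 0.05, edgeR had 5 of the 76 for breed, 3 for sex and 3 for the interaction, beside 530, 255 and 593 of all 7090 tested genes. The median breed difference over all tested genes was -0.00399 on the log2 scale, the median sex difference 0.00866 and the median interaction -0.0352.

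Of 30 genes of adipocyte differentiation, 10 were tested and none was called (edgeR), with a median breed difference of 0.06 and 7 of 10 values above 0. The transcription factor STAT5A had 0.09 (SE 0.07) and SREBF1, which governs lipid synthesis, 0.04 (SE 0.07). The master factor PPARG had 1 count over all 20 libraries, and the adipocyte products ADIPOQ, LEP and FABP4 had 2, 3 and 6 counts. Summed over 7 adipocyte markers the level was 16.3 to 33.2 CPM per library. Most of that sum came from CFD and CIDEC, with 520 and 299 counts over all libraries, against 30 for PLIN1 and 13 for LPL.

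Of the nuclear envelope proteins 14 were tested, none called (edgeR), with a median breed difference of 0.00. Examples were TOR1A, the ATPase torsin A (0.04, SE 0.25), and LPCAT3, a lysophospholipid acyltransferase (0.17, SE 0.10). Among 6 mechanosensitive channels, none called (edgeR), the osmosensitive channel TMEM63A had 0.06 (SE 0.08) and the stretch channel PIEZO1 0.02 (SE 0.11), with a median of 0.04. The fatty acid elongases ELOVL7 and ELOVL1, the tested members of a family whose fold TMEM120A resembles, had 0.33 (adjusted p = 0.582 in edgeR, SE 0.14) and 0.01 (SE 0.15).

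For the filopodia that RHOF drives, of 17 actin and filopodium genes none was called (edgeR), with a median breed difference of 0.04. BAIAP2, which bends the membrane into protrusions, had 0.19 (SE 0.15), and the actin-binding PFN1 0.01 (SE 0.06). Genes that lie near TMEM120B or TMEM120A in human had medians of 0.01 over 13 tested and 0.02 over 5 tested, with none called (edgeR). HIP1R had 0.07 (SE 0.08) and KNTC1 -0.11 (SE 0.11) in the first of these lists.

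From the lowest and highest counts per library, counting error alone came to 2.76 to 4.03% for TMEM120A, 3.62 to 5.95% for TMEM120B and 7.18 to 11.5% for RHOF. The fitted biological coefficient of variation was 10.5, 11.6 and 12.4% in the same order, against a median of 17.9% over all tested genes.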

How the data were processed

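Paired reads of 76 bases were sequenced from hypothalamus messenger RNA of 20 pigs, 1 library per animal. Per the submitters' processing notes, FastQC, Trim Galore, HISAT2, HTSeq and DESeq2 were used with Sscrofa11.1; versions, annotation release and strand setting are not given in the sources used here. The authors deposited unnormalized read counts for each gene; 5 summary lines (no feature, 80.2 to 88.1% of entries, and others) were left out. Symbols came from a reference table (14857 of 25880 rows), positions from RefSeq genes of Sscrofa11.1.

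Differences between groups were fitted in R 4.3.3 using edgeR 4.0.16 (TMM, filter by expected counts at 10 and 15 in total, robust quasi-likelihood, 1 mean per group, all 20 libraries, Benjamini-Hochberg over 7090 genes, threshold 0.05). Correlations used log2 CPM (prior count 2) minus group means and 100000 two-sided permutations within groups (numpy 2.4.6). Alternatives used DESeq2 1.42.0 and limma 3.58.1, other scalings, filters and terms, and each library left out. The fits were tested on simulated data. Pairs of libraries within a group differed beyond sampling noise (chi-square per degree of freedom 2.45 to 73.8). The labels do not say whether animals shared litters, so p-values measure the spread between these animals.

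The genes and lists were chosen with earlier results of these data known. Named genes are all 3 members, per list any called gene or else the 2 best counted, the 5 genes most like each member, and neighbours within 200 kb. Intervals cover 95%. The result of 1 of the 8 gene lists is not reported here.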

Additional observations from a re-analysis of the deposited data

Results flagged for a closer look

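Single libraries stood far from the rest of their group in 4 of 24 combinations of gene or count ratio and group. Chance flags about 5% of independent groups, but these combinations share genes and libraries, so no excess is read from the count. All 4 were ratios with RHOF, in crossbred female replicate 2 and Iberian male replicate 5, and none concerned the CPM of a gene alone. In crossbred female replicate 2 there were 2.73 counts of TMEM120B per count of RHOF, the lowest of that group, and 0.180 counts of RHOF per count of TMEM120A, the highest. In Iberian male replicate 5 there were 3.76 counts of TMEM120B per count of RHOF, against 2.93 to 2.98 in the other Iberian males, and 0.122 counts of RHOF per count of TMEM120A, the lowest of that group. The last library is the one with pituitary transcripts and the highest share of ND6 counts, and their part in its ratios was not tested.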

How the results depend on the processing

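No sex or interaction call was gained or lost for the 3 genes under any alternative, but some sex differences changed sign. For TMEM120B the sex difference was -0.00817 with RLE scaling, -0.006157 with DESeq2, -0.004408 without a filter and -0.007184 with a filter at 1 CPM, and -0.02349 to 0.02511 with 1 library left out. Within Iberian animals it was 0.01155 with voom, 0.04078 with a term for alignment quality, 0.03922 in the high-share libraries alone (chosen after seeing the data) and -0.06622 to 0.008026 with 1 library left out. RHOF there had -0.10 in the reported fit, and 0.0187 with the term and 0.01626 in those libraries. With 1 library left out, the sex difference within crossbreds was -0.008069 to 0.08864 for TMEM120B and -0.02108 to 0.05433 for TMEM120A, and the interaction of RHOF was -0.1299 (without Iberian male replicate 5) to 0.004395. The breed difference of RHOF in females was 0.2482 with the term, and that of TMEM120B in all animals stayed between 0.287 and 0.3346 with 1 library left out.

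Over all genes, a filter at 1 CPM called 9 genes for sex, 8 within Iberian and 8 within crossbred animals, and no filter called 12 in each. Interaction calls were 2 with DESeq2, 7 without a filter, 0 with the term (edgeR, 385 at an unadjusted p under 0.05) and 0 to 1 with 1 library left out. Breed calls were 27 with DESeq2, 78 without a filter, 0 with the term (edgeR, 804 at an unadjusted p under 0.05), 2 without crossbred female replicate 4 and 23 without Iberian male replicate 5. The causes were not tested.

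The correlation of TMEM120B with TMEM120A was 0.6375 without TMM (adjusted permutation p = 0.0346) and 0.368 (without crossbred female replicate 5) to 0.6619 (without crossbred male replicate 3) with 1 library left out. TMEM120B with RHOF had -0.4105 in crossbreds alone, and -0.0922 (without Iberian male replicate 5) to 0.1765 with 1 library left out. Same-numbered libraries correlated at -0.0808 to 0.194 over 30 pairs and 7 of 20 were best with their own number, and the labels do not say whether a number marks a shared litter or batch, so the numbers were not used to pair libraries. A replicate block left 0 interaction calls (edgeR, 596 at an unadjusted p under 0.05) and 15 breed calls, gave a breed difference of 0.3053 for TMEM120B, and put that first correlation at 0.6257 (adjusted permutation p = 0.0232). That p is too small, since values were shuffled within groups without keeping the replicate block, so no call is read from it. Depth limits RHOF most, with as few as 75 counts in a library.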
